A study of Homo sapiens with 6 samples.

Results

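Nuclear pre-mRNA splicing was followed through 37 genes, chosen by name as the serine/arginine-rich (SR) and TRA2 proteins (14 genes), the heterogeneous nuclear ribonucleoproteins (hnRNPs, 18 genes) and the PRPF proteins of the U4/U6.U5 tri-snRNP (5 genes). The choice was made with earlier results of these data known. All 37 symbols were among the 53712 genes of the count table. All 37 passed the filter on low counts that left 16873 genes for testing. RNA came from H9, an established human embryonic stem cell line that the labels call naive, kept in PXGL medium and transfected with 25 nM of either ASO-L1, an antisense oligonucleotide to the LINE-1 retrotransposon, or SO-L1, the sense oligonucleotide used as control. Cells of both groups also received 0.7 uM of the integrated stress response inhibitor trans-ISRIB, 5 uM of the caspase inhibitor emricasan and 10 uM of the ROCK inhibitor Y-27632, removed after 24 hours, and RNA was taken from unsorted cells at 48 hours. Each group has 3 poly(A) libraries numbered 1 to 3. The labels do not state whether the 3 were cultured apart. The tests therefore rest on library-to-library spread that may be technical. All cells are of 1 line. The knockdown of LINE-1 RNA itself is not analysed here.

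SR proteins bind exonic enhancers through RNA recognition motifs and recruit the splicing machinery through a tail of arginine and serine repeats, while TRA2A and TRA2B are SR-like proteins that bind purine-rich exons. hnRNPs coat nascent transcripts and often oppose SR proteins at the same exons. The tri-snRNP brings U4, U6 and U5 snRNAs to the spliceosome, where U4 and U6 are unwound before catalysis. Transcripts of many SR and hnRNP genes also carry exons or introns whose retention sends them to decay, a form of self-regulation. Counts per gene do not separate such isoforms.

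The 6 libraries held 23330875 to 31164287 counts, and the 37 genes took 1.60% to 1.69% of them in ASO-L1 libraries and 1.55% to 1.61% in SO-L1 libraries. ASO-L1 library 2 stood farthest from the control libraries on the first principal component of log2 CPM (counts scaled to library size), which held 68.8% of the variance. Summed CPM of 9 tested primed pluripotency markers was 761 to 840.4 in ASO-L1 and 583 to 603 in SO-L1 libraries, and that of 7 primitive endoderm markers was 64.3 to 117 in ASO-L1 and 18.6 to 31.5 in SO-L1 libraries. Single genes held most of these gaps: VIM averaged 308 ± 45.1 CPM in ASO-L1 and 130.1 ± 19.2 CPM in SO-L1 libraries, and CER1 averaged 70.3 ± 26.7 CPM in ASO-L1 and 14.5 ± 6.48 CPM in SO-L1 libraries (SD, n = 3 each). The endoderm markers GATA4, PDGFRA and FOXA2 did not pass the test. For 10 fibroblast and mesenchymal markers it was 687 to 822 in ASO-L1 and 551 to 623 in SO-L1 libraries, and for 7 trophectoderm markers 109.7 to 126 in ASO-L1 and 109.8 to 113 in SO-L1 libraries. For 10 naive markers the sum was 596 to 623 in ASO-L1 and 661 to 709.6 in SO-L1 libraries, and for 9 core pluripotency markers 3829 to 4446 in ASO-L1 and 4516 to 4891 in SO-L1 libraries. Among the naive markers the defining factor KLF17 was close to absent, at 0.395 ± 0.146 CPM in ASO-L1 and 0.743 ± 0.196 CPM in SO-L1 libraries (SD, n = 3 each), and ARGFX and KHDC1L had 16 and 9 reads in all 6 libraries together. DPPA5 was present at 17.0 ± 7.27 CPM in ASO-L1 and 34.2 ± 10.4 CPM in SO-L1 libraries (SD, n = 3 each). Neither KLF17 nor DPPA5 passed the test (adjusted p 0.103 and 0.107 by edgeR), and their groups overlapped. With the replicate number as a block DPPA5 was called lower. KLF4 rose, from a mean of 44.9 CPM in SO-L1 to 74.0 CPM in ASO-L1 libraries, as did TFCP2L1, from 36.6 to 50.9 CPM. KHDC3L fell from a mean of 65.7 CPM in SO-L1 to 25.0 CPM in ASO-L1 libraries, and DPPA3 from 17.4 to 9.38 CPM. SUSD2 fell from 30.0 to 20.9 CPM and DNMT3L from 79.9 to 57.5 CPM. Much of the naive sum lay in ZFP42 (282 CPM in SO-L1, 265 in ASO-L1) and NLRP7 (101 and 93.1), which did not pass the test. No written marker found in the table was at 0 in all libraries. Of these lists, 4 of 9 primed, 4 of 7 endoderm, 5 of 10 fibroblast and 2 of 7 trophectoderm markers rose and none fell. Among naive markers 2 of 10 rose and 4 fell, and 1 of 9 core markers fell. Beside these counts, 18.0% of all tested genes rose and 15.7% fell. THY1, which rose, is counted in both the primed and the fibroblast list. The summed levels did not overlap between groups except for trophectoderm, and their part in the results below was not tested. In such bulk samples, fewer cells of a type and less RNA per cell cannot be told apart.

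Of the 37 genes, 12 rose after ASO-L1, none fell and 25 did not pass the test at an adjusted p under 0.05 (edgeR quasi-likelihood test, Benjamini-Hochberg adjusted over all tested genes). HNRNPM was lower at an unadjusted p of 0.0438 by edgeR but did not pass after adjustment. DESeq2 and limma-voom also called 0 of the 37 lower. Over all tested genes, 33.7% were called, 18.0% as higher and 15.7% as lower, so 32.4% higher and 0% lower in the 37 genes stand beside those shares. Because the genes were chosen with earlier results known, their shares may in part reflect the choice. The background was not matched to the 37 genes in expression level. Among genes above 1 CPM in 3 libraries, 38.1% were called (20.3% as higher), and 14 of the 37 were called, all higher. The median log2 fold change (ASO-L1 over SO-L1) of the 37 genes was 0.11, within a range of -0.20 to 0.73, beside -0.01 over all tested genes. The 12 genes that rose gained between 16.2% (HNRNPAB) and 66.1% (PRPF3). In 22 genes every ASO-L1 library lay above every SO-L1 library, and in 2 genes, HNRNPM and SRSF11, every ASO-L1 library lay below. Of all tested genes 50.9% separated, 25.8% and 25.1% in these directions. For the 12 genes that rose, the groups did not overlap.

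**Figure D1:**
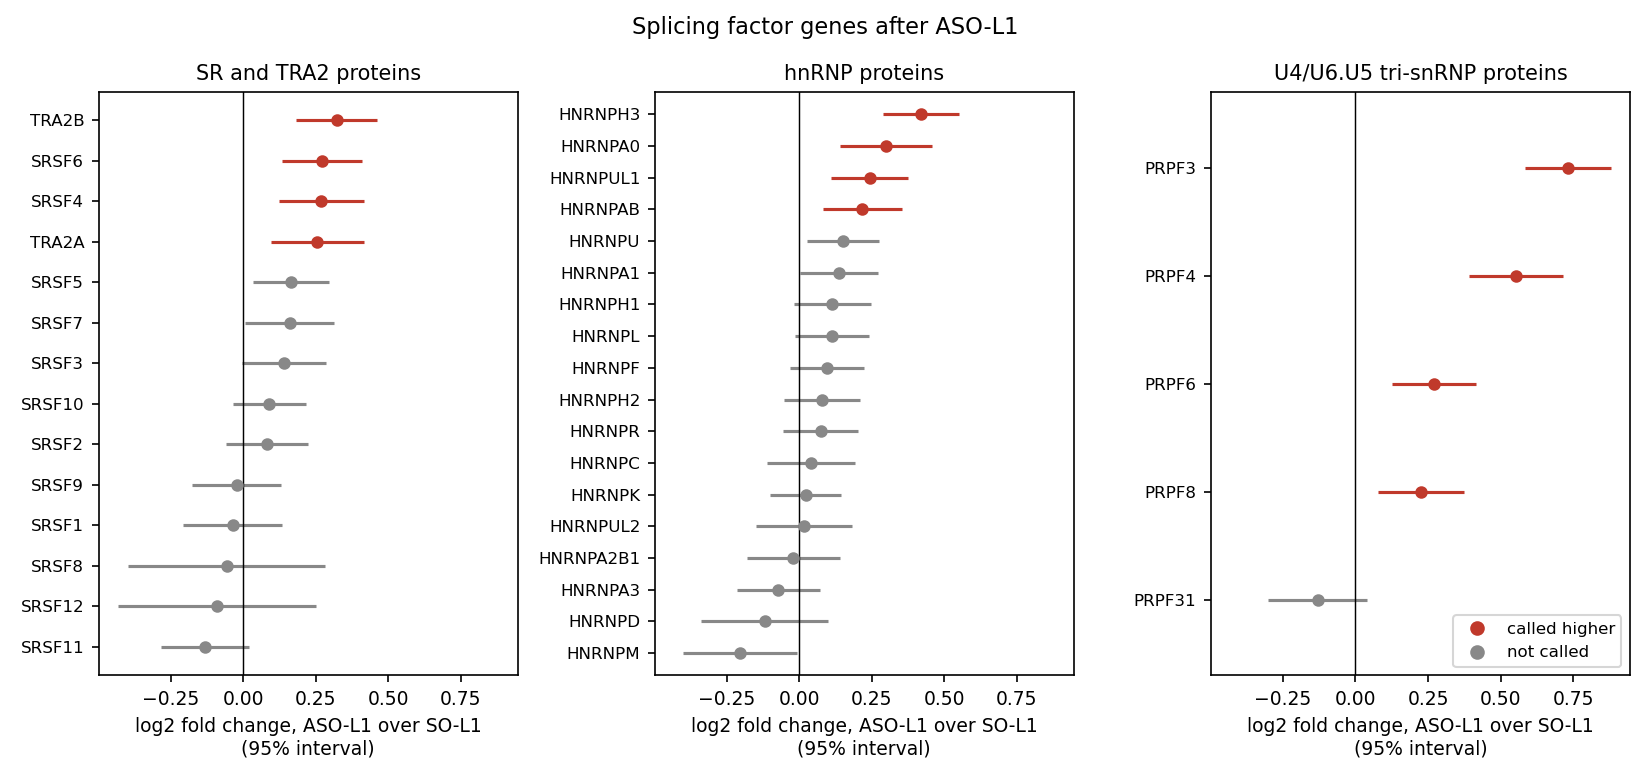
Log2 fold change of the 37 splicing factor genes (ASO-L1 over SO-L1), with the unadjusted 95% interval as bars, in panels for SR and TRA2, hnRNP and tri-snRNP genes; red points mark an adjusted p under 0.05. PRPF3 at 0.73 and PRPF4 at 0.55 lie farthest to the right and HNRNPM at -0.20 farthest to the left.

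The 2 highest increases were in genes of the tri-snRNP. Of its 5 genes 4 rose (80%, beside 18.0% of all tested genes) and PRPF31 did not pass the test. PRPF3, which with PRPF4 forms a complex bound to the paired U4 and U6 snRNAs, stood at 137, 154 and 139 CPM in ASO-L1 libraries 1 to 3, against 87.6, 85.3 and 86.3 CPM in SO-L1 libraries. Every ASO-L1 library was far above the controls, whose 3 values were nearly the same. This gave a log2 fold change of 0.73 ± 0.07 (SE), with an adjusted p of 8.0e-04 by edgeR. PRPF4, the partner of PRPF3 in that complex, stood at 119, 136 and 117 CPM in ASO-L1 libraries, against 84.0, 83.6 and 85.4 CPM in SO-L1 libraries. The groups were well apart, with ASO-L1 library 2 the highest. Its log2 fold change was 0.55 ± 0.07 (SE), with an adjusted p of 0.00163 by edgeR.

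PRPF6, which bridges the U5 and U4/U6 particles, stood at 252, 277 and 272 CPM in ASO-L1 libraries, against 233, 209.6 and 221 CPM in SO-L1 libraries. The lowest ASO-L1 library, number 1, was close to the highest control library, also number 1. In log2 terms the fold change was 0.27 ± 0.07 (SE), with an adjusted p of 0.0114 by edgeR. PRPF8, the large U5 protein at the catalytic centre of the spliceosome, stood at 912, 916 and 926 CPM in ASO-L1 libraries, against 732, 774 and 848 CPM in SO-L1 libraries. The ASO-L1 libraries were nearly equal while the controls were spread, and SO-L1 library 3 came closest to the ASO-L1 values. The log2 fold change was 0.23 ± 0.07 (SE), with an adjusted p of 0.0260 by edgeR. The call of PRPF8 was lost without ASO-L1 library 1 (adjusted p 0.0614) or 3 (0.0690) and without SO-L1 library 1 (0.0909) or 2 (0.0631), by edgeR. The call of PRPF6 was lost without SO-L1 library 3, at an adjusted p of 0.0526 by edgeR.

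PRPF31, the U4/U6 protein that binds the U4 snRNP and tethers the tri-snRNP, stood at 55.2, 52.1 and 58.4 CPM in ASO-L1 libraries, against 64.6, 57.2 and 59.6 CPM in SO-L1 libraries. The groups overlapped, since ASO-L1 library 3 lay above SO-L1 library 2. This gave a log2 fold change of -0.13 ± 0.08 (SE; 95% interval -0.30 to 0.04), with an adjusted p of 0.212 by edgeR. The 5 proteins belong to 1 particle. The log2 ratio of PRPF3, the highest of the 5 in log2 fold change, to PRPF31, the lowest, was computed in each library. It was 1.31, 1.57 and 1.25 in ASO-L1 libraries, against 0.44, 0.58 and 0.53 in SO-L1 libraries, a difference of 0.86. The ratio of PRPF4 to PRPF31 averaged 1.16 ± 0.20 in ASO-L1 and 0.48 ± 0.09 in SO-L1 libraries (SD, n = 3 each), a difference of 0.68, and that of PRPF3 to PRPF4 was 0.21 ± 0.04 in ASO-L1 and 0.03 ± 0.02 in SO-L1 libraries, a difference of 0.18. These were 3 of 6 ratios computed, chosen after the values were seen, so separation of the groups is in part a result of the choice. For each of the 6 the groups did not overlap, and the exact two-sided permutation test gave 0.1, the smallest p that 3 against 3 libraries allow, both raw and adjusted over the 6.

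**Figure D2:**
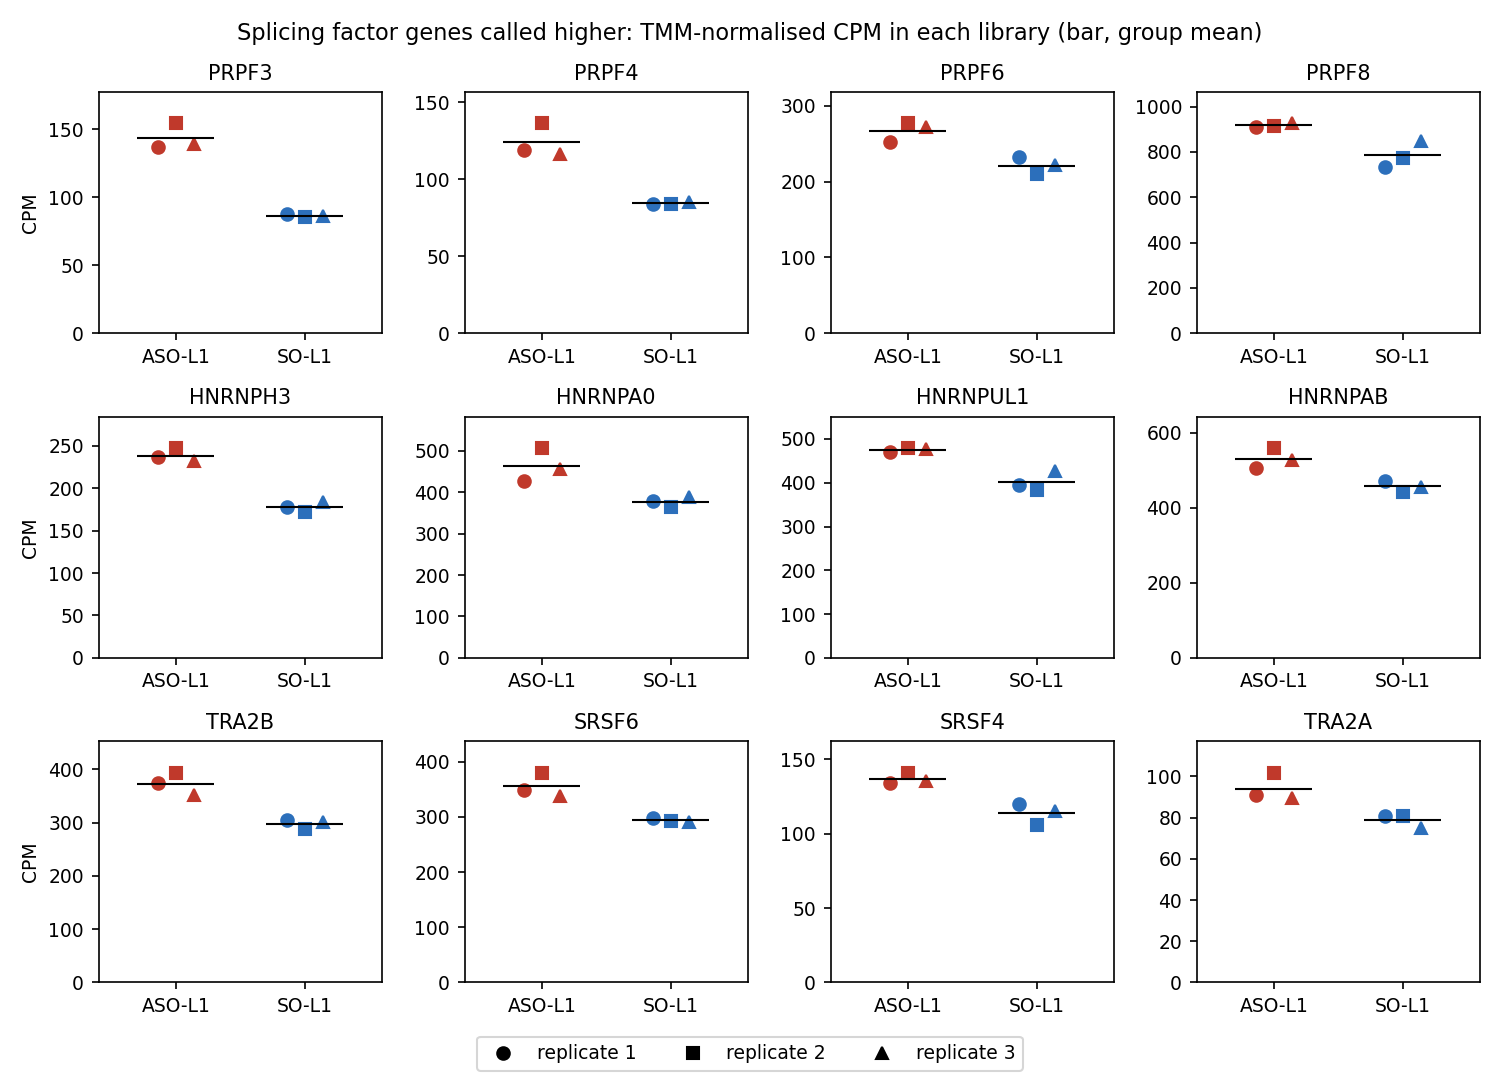
CPM of the 12 splicing factor genes that rose, 1 panel per gene, with ASO-L1 libraries left and SO-L1 libraries right; points are the libraries, shaped by replicate number, and lines the group mean. In each panel the 3 ASO-L1 points lie above the 3 SO-L1 points, with a wide gap in PRPF3 (137 to 154 CPM in ASO-L1, 85.3 to 87.6 CPM in SO-L1) and a narrow one in PRPF6 (252 to 277 CPM in ASO-L1, 209.6 to 233 CPM in SO-L1).

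Among the 18 hnRNP genes 4 rose (22.2%, beside 18.0% of all tested genes), none fell and 14 did not pass the test, with a median log2 fold change of 0.09. HNRNPH3, a relative of the G-run binding proteins HNRNPH1 and HNRNPH2, stood at 236, 247 and 232 CPM in ASO-L1 libraries, against 178, 172 and 184 CPM in SO-L1 libraries. The groups were far apart compared with the spread within each. Its log2 fold change was 0.42 ± 0.06 (SE), with an adjusted p of 0.00183 by edgeR. Its close relatives did not pass the same test, although in both every ASO-L1 library lay above every SO-L1 library. Without both libraries of number 2, HNRNPH1 was called higher, at an adjusted p of 0.0351 by edgeR. HNRNPH1 averaged 552 ± 24.5 CPM in ASO-L1 and 510.3 ± 11.7 CPM in SO-L1 libraries (SD, n = 3 each), with an adjusted p of 0.164 by edgeR. HNRNPH2 averaged 138 ± 5.19 CPM in ASO-L1 and 131 ± 2.33 CPM in SO-L1 libraries (SD, n = 3 each), with an adjusted p of 0.333 by edgeR. The log2 ratio of HNRNPH3 to HNRNPH2 was 0.79 ± 0.02 in ASO-L1 and 0.45 ± 0.04 in SO-L1 libraries (SD, n = 3 each), a difference of 0.34, and that of HNRNPH3 to HNRNPH1 was -1.21 ± 0.11 in ASO-L1 and -1.52 ± 0.02 in SO-L1 libraries, a difference of 0.31.

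HNRNPA0, an A/B-type hnRNP that also binds AU-rich elements of mRNAs, stood at 428, 507 and 457 CPM in ASO-L1 libraries, against 378, 364 and 389 CPM in SO-L1 libraries. ASO-L1 library 2 was the highest, and library 1 the closest to the controls. In log2 terms the fold change was 0.30 ± 0.07 (SE), with an adjusted p of 0.0109 by edgeR. HNRNPUL1, a relative of the nuclear scaffold protein HNRNPU, stood at 469.6, 479 and 477 CPM in ASO-L1 libraries, against 396, 384 and 426 CPM in SO-L1 libraries. SO-L1 library 3 was the nearest to the tight ASO-L1 values. The log2 fold change was 0.24 ± 0.06 (SE), with an adjusted p of 0.0133 by edgeR, and 0.0515 without SO-L1 library 1. HNRNPAB, another A/B-type protein, stood at 507, 559 and 527 CPM in ASO-L1 libraries, against 472, 442 and 457 CPM in SO-L1 libraries. The groups did not overlap, and ASO-L1 library 1 was the closest to the controls. This gave a log2 fold change of 0.22 ± 0.06 (SE), with an adjusted p of 0.0223 by edgeR. That call was lost without ASO-L1 library 3 (0.0526), SO-L1 library 2 (0.0642) or SO-L1 library 3 (0.0846).

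The 4 genes of highest mean CPM that did not pass the test were all hnRNPs. HNRNPA1, a repressor of exon inclusion, stood at 1723, 1764 and 1752 CPM in ASO-L1 libraries, against 1647, 1503 and 1616 CPM in SO-L1 libraries. The groups did not overlap, but the log2 fold change was 0.14 ± 0.06 (SE), with an adjusted p of 0.106 by edgeR. HNRNPU, which binds chromatin-associated RNA, stood at 1006, 1000.1 and 1031 CPM in ASO-L1 libraries, against 911, 892 and 931 CPM in SO-L1 libraries. Here too the groups did not overlap, at 0.15 ± 0.06 (SE) and an adjusted p of 0.0598 by edgeR, which became 0.0381 with the replicate number as a block and 0.0479 without ASO-L1 library 2. HNRNPA2B1, the A2/B1 protein, stood at 1402, 1234 and 1446 CPM in ASO-L1 libraries, against 1397, 1322 and 1424 CPM in SO-L1 libraries, with both groups lowest in library 2 and overlapping. Its 95% interval for the log2 fold change was -0.18 to 0.14. HNRNPK, which binds C-rich RNA, stood at 1002, 996 and 1008 CPM in ASO-L1 libraries, against 979, 973 and 1009 CPM in SO-L1 libraries, and its groups overlapped within a narrow range. Its 95% interval was -0.10 to 0.14.

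HNRNPM, a repressor and enhancer of exons that binds GU-rich RNA, had the lowest fold change of the 37 genes. It stood at 636, 527 and 677 CPM in ASO-L1 libraries, against 748, 686 and 687 CPM in SO-L1 libraries. ASO-L1 library 2 was far below the rest, and ASO-L1 library 3 close to 2 controls. Its log2 fold change was -0.20 ± 0.09 (SE), with an adjusted p of 0.1002 by edgeR, and 0.0168 with the replicate number as a block. It was also called lower without ASO-L1 library 3, at an adjusted p of 0.0425. HNRNPD, the AU-rich element binding protein AUF1, averaged 633 ± 88.5 CPM in ASO-L1 and 688 ± 47.0 CPM in SO-L1 libraries (SD, n = 3 each). The other hnRNP genes, HNRNPA3, HNRNPC, HNRNPF, HNRNPL, HNRNPR and HNRNPUL2, had log2 fold changes from -0.07 (HNRNPA3) to 0.11 (HNRNPL), none of which passed the test.

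Among the 14 SR and TRA2 genes 4 rose (28.6%, beside 18.0% of all tested genes), none fell and 10 did not pass the test, with a median log2 fold change of 0.11. TRA2B, which binds GA-rich exonic enhancers, stood at 373, 394 and 351 CPM in ASO-L1 libraries, against 305, 288 and 301 CPM in SO-L1 libraries. The groups were apart by more than the spread within each. In log2 terms the fold change was 0.32 ± 0.06 (SE), with an adjusted p of 0.00471 by edgeR. Its paralog TRA2A stood at 90.8, 102 and 89.7 CPM in ASO-L1 libraries, against 80.7, 80.7 and 75.1 CPM in SO-L1 libraries. ASO-L1 library 2 was highest and the other 2 were closer to the controls. The log2 fold change was 0.26 ± 0.07 (SE), with an adjusted p of 0.0221 by edgeR, and the call was lost without SO-L1 library 1 (0.0601) or SO-L1 library 3 (0.104).

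SRSF6, known as SRp55, stood at 349, 380.1 and 338 CPM in ASO-L1 libraries, against 298, 293 and 292 CPM in SO-L1 libraries. The controls were nearly equal and all below the ASO-L1 values. This gave a log2 fold change of 0.27 ± 0.06 (SE), with an adjusted p of 0.00898 by edgeR. SRSF4, the related SRp75, stood at 134, 141 and 136 CPM in ASO-L1 libraries, against 120.1, 106 and 115 CPM in SO-L1 libraries. Here SO-L1 library 2 was lowest and the ASO-L1 libraries were tight. Its log2 fold change was 0.27 ± 0.07 (SE), with an adjusted p of 0.0124 by edgeR, and 0.0508 without SO-L1 library 3.

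SRSF1, the founding member of the SR family, stood at 508, 421 and 501 CPM in ASO-L1 libraries, against 502, 472 and 492 CPM in SO-L1 libraries. The groups overlapped, with library 2 lowest in both. In log2 terms the fold change was -0.04 ± 0.08 (SE), with an adjusted p of 0.745 by edgeR. The log2 ratio of TRA2B to SRSF1 was -0.352 ± 0.222 in ASO-L1 and -0.714 ± 0.00497 in SO-L1 libraries (SD, n = 3 each), a difference of 0.36. SRSF5 averaged 199 ± 7.99 CPM in ASO-L1 and 178 ± 4.19 CPM in SO-L1 libraries (SD, n = 3 each). Its adjusted p was 0.0548 by edgeR, and 0.0301 with the replicate block. SRSF3 and SRSF7, SR proteins that also act in mRNA export, had log2 fold changes of 0.14 ± 0.07 and 0.16 ± 0.07 (SE), with adjusted p of 0.119 and 0.0985 by edgeR. SRSF11 averaged 213 ± 17.0 CPM in ASO-L1 and 233 ± 1.67 CPM in SO-L1 libraries (SD, n = 3 each), at -0.13 ± 0.07 (SE) and an adjusted p of 0.159 by edgeR. SRSF2, SRSF8, SRSF9, SRSF10 and SRSF12 had log2 fold changes from -0.09 (SRSF12) to 0.09 (SRSF10), and SRSF12 had few counts, at 5.47 ± 0.744 CPM in ASO-L1 and 5.82 ± 0.723 CPM in SO-L1 libraries (SD, n = 3 each).

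The size of the difference was not the same in the 3 replicate numbers. Number 2 gave the highest difference for 11 of the 12 genes that rose, and ASO-L1 library 2 was the highest ASO-L1 library for 11 of them, with PRPF8 the exception to both. For PRPF3 the log2 differences in CPM were 0.65, 0.85 and 0.69 in numbers 1, 2 and 3, and for PRPF4 they were 0.50, 0.70 and 0.45. Both genes were higher in ASO-L1 in every number. For HNRNPH3 they were 0.41, 0.52 and 0.33, and for PRPF8 0.32, 0.24 and 0.13. For HNRNPM they were -0.23, -0.38 and -0.02, so the difference was close to 0 in number 3. Over the 37 genes, 22 were higher and 5 lower in all 3 numbers, beside 33.8% and 34.8% of all tested genes.

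**Figure D3:**
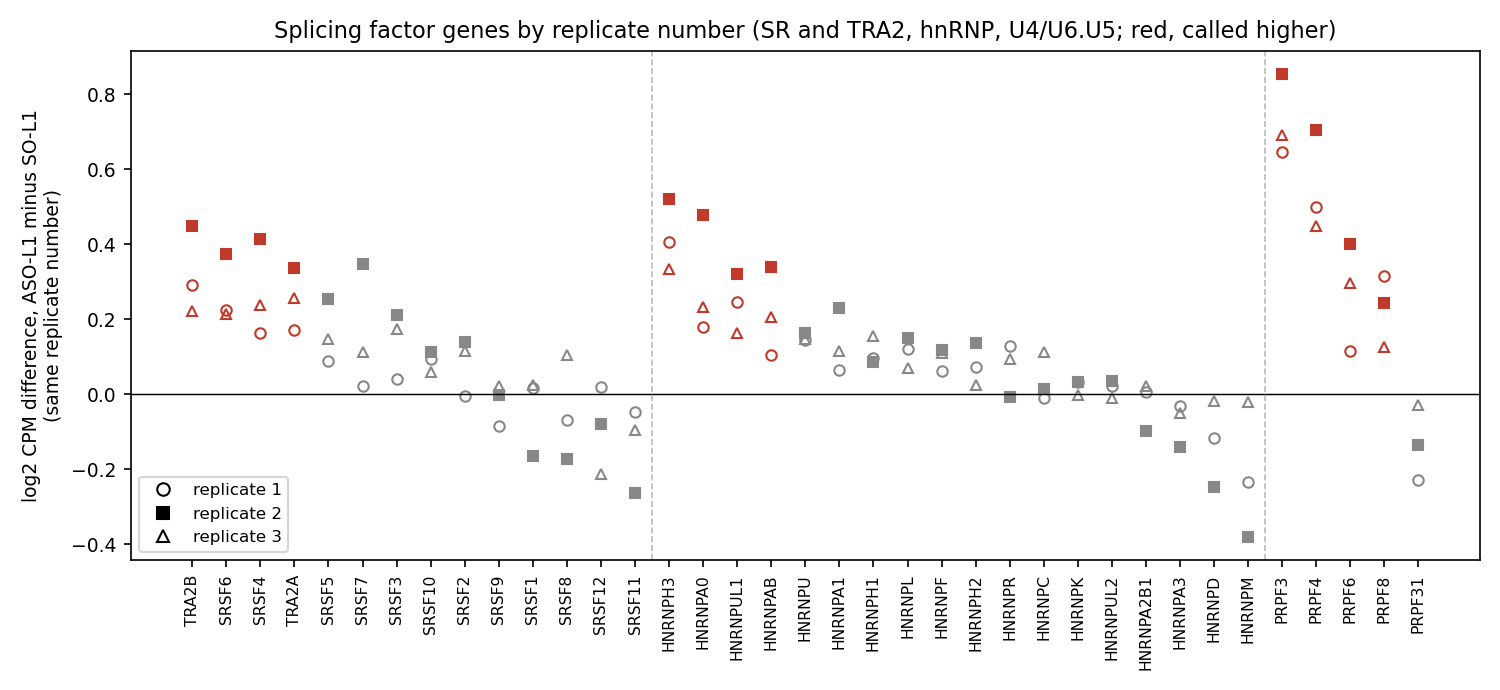
Log2 difference in CPM (ASO-L1 minus SO-L1) of each of the 37 genes within replicate numbers 1, 2 and 3, as 3 marker shapes, with the 12 genes that rose in red. All 12 are above 0 in each number, and PRPF3 lies highest throughout, at 0.65, 0.85 and 0.69.

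Without both libraries of number 1 only PRPF3, PRPF4 and HNRNPH3 of the 37 genes were still called, and without those of number 3 TRA2B was called as well. In those fits 6.95% and 16.9% of all tested genes were called (4.45% and 9.64% as higher). Tested against a change of 1.2-fold, the same 3 genes PRPF3, PRPF4 and HNRNPH3 passed, beside 12.2% of all tested genes (7.47% as higher), with adjusted p up to 0.0442 over all 17 alternatives in edgeR, limma-voom and DESeq2. The authors' deposited table called 10 of the 37 genes higher and 0 lower, beside 11.7% and 9.77% of its 20964 genes (21.4% in either direction), and gave the same sign for all 37. There, in the authors' deposited table, TRA2A, at an adjusted p of 0.0584, and HNRNPAB, at 0.0641, missed the threshold. In the authors' batch-corrected table of log2 values the groups separated in 20 of the 37 genes as higher and in 6 as lower, beside 29.5% and 32.2% of all genes in it. With the replicate number as a block in edgeR, 14 of the 37 were called higher and 1, HNRNPM, lower, beside 23.3% and 22.5% of all tested genes (45.7% in either direction).

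Kinases that phosphorylate the arginine/serine tails included genes called in each direction. Of 12 kinases and phosphatases, 4 rose, 2 fell and 6 did not pass the test, and the median change was 0.17 in log2. The 2 lower are 16.7% of the list, beside 15.7% of all tested genes, and the 4 higher 33.3%, beside 18.0%. Under the block by replicate number, 7 were called higher and 2 lower, beside 23.3% and 22.5%. CLK3, a nuclear kinase of SR proteins, stood at 68.3, 101 and 66.8 CPM in ASO-L1 libraries, against 41.7, 39.1 and 40.8 CPM in SO-L1 libraries. ASO-L1 library 2 was far above the other 2, which were themselves above all controls. The log2 fold change was 0.95 ± 0.15 (SE), with an adjusted p of 0.00324 by edgeR. CLK4 averaged 17.9 ± 1.15 CPM in ASO-L1 and 12.6 ± 0.370 CPM in SO-L1 libraries (SD, n = 3 each), with an adjusted p of 0.00436 by edgeR. CLK1 averaged 74.8 ± 23.6 CPM in ASO-L1 and 44.4 ± 5.15 CPM in SO-L1 libraries (SD, n = 3 each), with an adjusted p of 0.0325 by edgeR. The call of CLK1 was lost without SO-L1 library 1 (0.0657) or SO-L1 library 3 (0.0951). DYRK1A, a kinase of several splicing factors, rose by 0.41 ± 0.09 on the log2 scale (SE), with an adjusted p of 0.00753 by edgeR.

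Both cytoplasmic SR kinases measured at more than 1 CPM fell. SRPK2 stood at 42.2, 32.5 and 42.4 CPM in ASO-L1 libraries, against 54.3, 51.6 and 58.6 CPM in SO-L1 libraries, and the groups did not overlap. This gave a log2 fold change of -0.49 ± 0.11 (SE), with an adjusted p of 0.00718 by edgeR. SRPK1, which phosphorylates SR proteins for import into the nucleus, stood at 149, 122 and 150.3 CPM in ASO-L1 libraries, against 174, 167 and 177 CPM in SO-L1 libraries. ASO-L1 library 2 was lowest in both genes. Its log2 fold change was -0.30 ± 0.08 (SE), with an adjusted p of 0.0213 by edgeR, and the call was lost without SO-L1 library 1 (0.0776) or SO-L1 library 3 (0.0824). CLK2 was not called, at 0.18 ± 0.07 (SE) and an adjusted p of 0.0767 by edgeR, and 0.0371 with the replicate block.

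**Figure D4:**
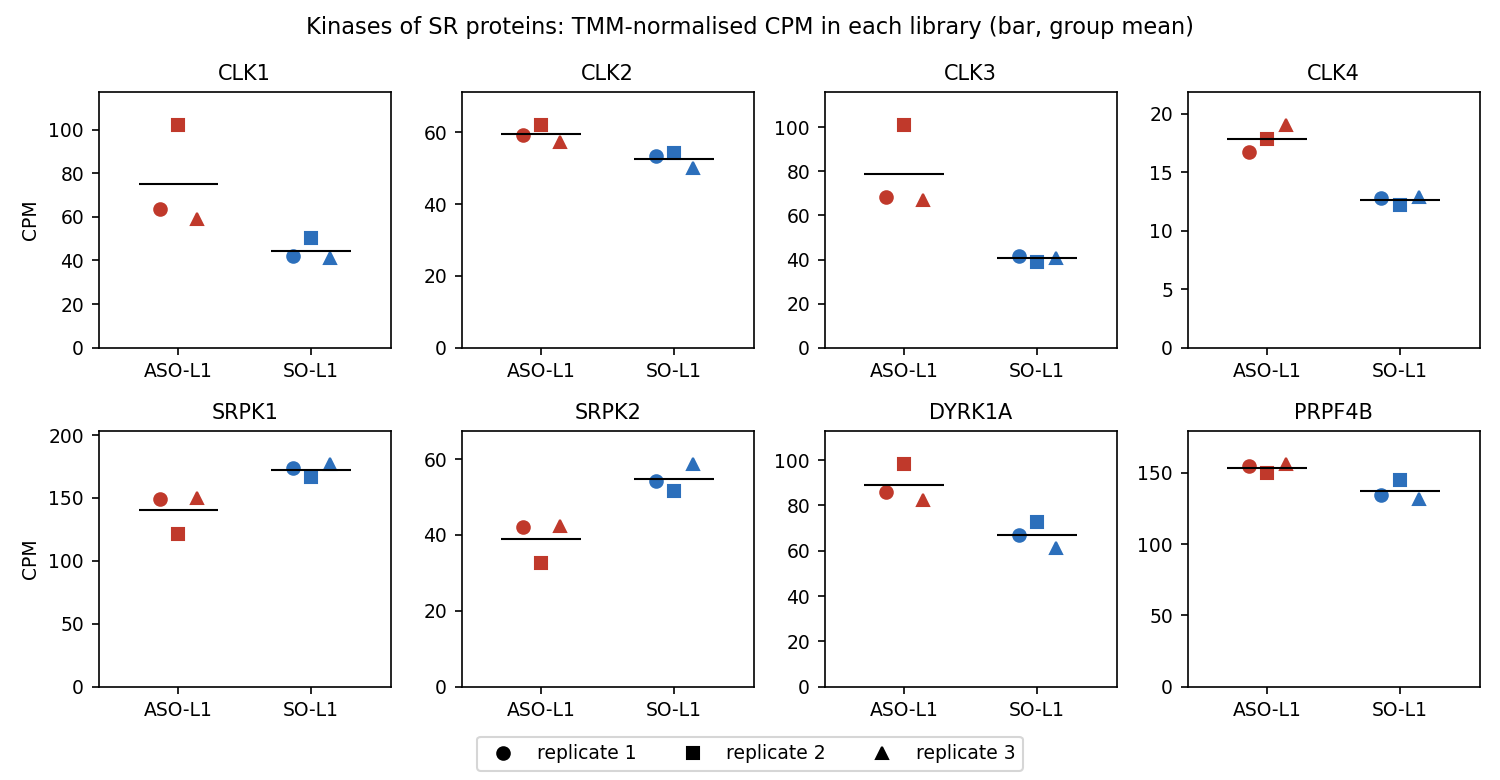
CPM of kinases that phosphorylate SR proteins, 1 panel per gene, ASO-L1 libraries left and SO-L1 libraries right, with points for libraries, shaped by replicate number, and lines for the group mean. CLK3 is higher in ASO-L1 libraries (66.8 to 101 CPM in ASO-L1, 39.1 to 41.7 CPM in SO-L1), while SRPK2 is lower (32.5 to 42.4 CPM in ASO-L1, 51.6 to 58.6 CPM in SO-L1).

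The other splicing genes were read from 6 lists that hold 137 tested genes outside the 37, kinases included. Of these, 46 rose (33.6%, beside 18.0% of all tested genes) and 20 fell (14.6%, beside 15.7%). These lists too were chosen with earlier results of these data known, so the share called in each may in part reflect the choice. Their median log2 fold change was 0.14. Of the 6 lists, the highest share of called genes was in that of branch point and 3' splice site recognition. There 14 of 19 genes rose (73.7%, beside 18.0%), none fell and the median was 0.23. SF3B4, a U2 snRNP protein, averaged 265 ± 53.8 CPM in ASO-L1 and 164 ± 5.29 CPM in SO-L1 libraries (SD, n = 3 each), with an adjusted p of 0.00459 by edgeR. DDX39B, a helicase of early spliceosome assembly, rose by 0.43 ± 0.08 (log2, SE) and SF3A1 by 0.29 ± 0.07. Among 15 further U5 and tri-snRNP proteins 5 rose (33.3%, beside 18.0%) and none fell, with a median of 0.15. With the replicate block 6 rose and 2, EFTUD2 and SNRNP200, fell, beside 23.3% and 22.5% of all tested genes. Those that rose without the block included SART1 at 0.35 ± 0.06, SART3, which reassembles U4 with U6, at 0.28 ± 0.06, and the U5 helicase DDX23 at 0.27 ± 0.06 (log2, SE).

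Among 22 genes of the PRPF19 complex and the catalytic steps 11 rose (50%, beside 18.0% of all tested genes). In the same list 3 fell (13.6%, beside 15.7%), and the median was 0.18. RBM22 rose by 0.63 ± 0.09 and ISY1 by 0.73 ± 0.13 (log2, SE). SYF2, of the same group, averaged 30.6 ± 5.42 CPM in ASO-L1 and 55.9 ± 4.72 CPM in SO-L1 libraries (SD, n = 3 each), with an adjusted p of 0.00195 by edgeR. The 20 U1 snRNP and Sm or LSm ring genes included 4 higher and 3 lower, close to the 18.0% and 15.7% of all tested genes, with a median of -0.01, and LUC7L3 (0.50 ± 0.07), SNRPB (0.28 ± 0.08) and LSM2 (0.24 ± 0.07) were among the risers. With the replicate block 4 were called higher and 5 lower, beside 23.3% and 22.5% of all tested genes. SNRPB lost its call without SO-L1 library 1 (0.0501) or 2 (0.0587), and LSM2 without SO-L1 library 3 (0.0907). Of 49 other hnRNP-family and regulator genes 8 rose (16.3%, beside 18.0% of all tested genes) and 12 fell (24.5%, beside 15.7%). Their median was -0.03. RBM39 (0.55 ± 0.08) and PNN (0.37 ± 0.06) rose, and CELF2 fell by 0.49 on the log2 scale. With the replicate block 15 of these 49 were called higher and 17 lower, beside 23.3% and 22.5% of all tested genes. Without both libraries of number 1, CLK1, CLK4, SRPK1, SRPK2, DYRK1A, DDX39B, SF3A1, SNRPB, LSM2, SART3 and DDX23 were no longer called, with adjusted p of 0.0540 (CLK4) to 0.123 (SRPK1), while CLK3, SF3B4, LUC7L3, RBM22, SYF2, ISY1, RBM39 and CELF2 were.

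**Figure D5:**
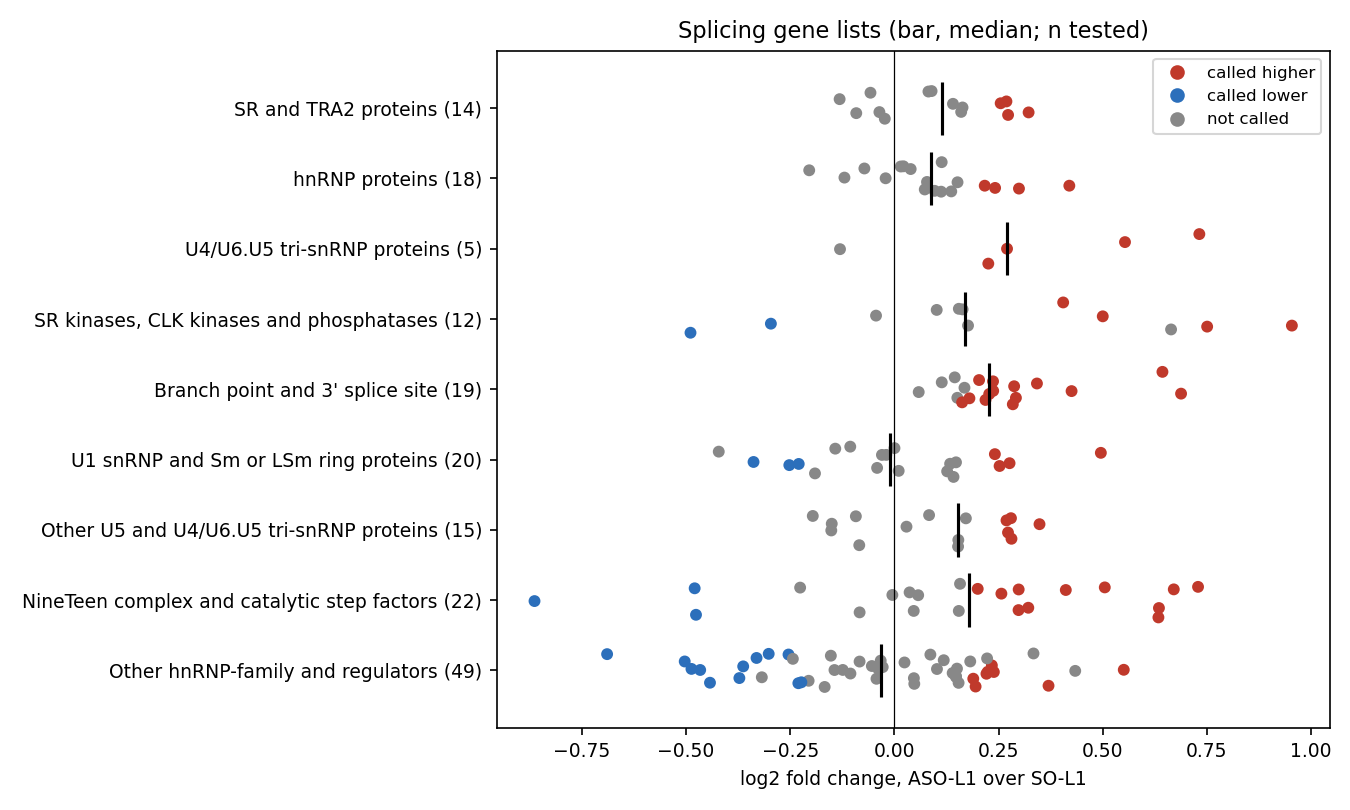
Log2 fold change (ASO-L1 over SO-L1) of every tested gene in the 3 classes of the 37 genes and in the 6 lists of other splicing genes, with the median of each list as a bar, called genes in red (higher) or blue (lower) and the rest in grey. Medians run from -0.03 (other hnRNP-family and regulator genes) to 0.27 (the 5 PRPF genes), with wide scatter in the list of the PRPF19 complex, where SYF2 at -0.86 lies lowest.

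Reads of near-identical copies can be split between a gene and its pseudogenes, and how the authors' counting assigned them is not stated. The table holds 48 pseudogenes named after the 37 genes, of which 3 passed the filter, all of HNRNPA1. HNRNPA1P21 had 16, 13 and 39 counts in ASO-L1 libraries, against 118, 105 and 81 counts in SO-L1 libraries. The groups did not overlap, and its log2 fold change was -2.05 ± 0.30 (SE), with an adjusted p of 0.00212 by edgeR, while HNRNPA1 itself was not called. HNRNPA1P16 (0.39 ± 0.24) and HNRNPA1P10 (0.53 ± 0.39) did not pass the test. The antisense gene HNRNPU-AS1 had 172, 137 and 197 counts in ASO-L1 and 153, 106 and 154 counts in SO-L1 libraries, at 0.45 ± 0.14 (SE) and an adjusted p of 0.0280 by edgeR. That call was lost on leaving out any 1 library other than ASO-L1 library 2, with adjusted p of 0.0583 to 0.0986. The kit keeps strand, but whether the counting used it is not given. In the GENCODE v29 annotation, 8 of the 37 genes share at least 10% of their exon bases with exons of another gene, and their counts are uncertain on this point. The authors counted on hg19 with an annotation that is not given, so the overlaps there may differ. On the same strand these are SRSF1 with AC015813.2 (59.0%), HNRNPUL2 with HNRNPUL2-BSCL2 (45.7%), HNRNPL with AC008982.1 (22.3%) and HNRNPH2 with RPL36A-HNRNPH2 (16.3%). On the opposite strand they are SRSF9 with GATC (41.2%), SRSF2 with MFSD11 (34.7%), HNRNPM with AC136469.2 (12.8%), SRSF1 also with AC015813.5 (12.6%), and PRPF31 with AC245052.4 (26.0%) and TFPT (11.7%). The ratios above that have SRSF1, HNRNPH2 or PRPF31 as denominator carry this limit. None of the 12 genes that rose is among the 8, and PRPF4 shares 6.47% with CDC26.

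The sequence before the start sites was described for a few of the genes. RefSeq windows on GRCh38.p14 matched 33 of the 37 genes, without PRPF3, HNRNPA1, SRSF2 and TRA2A, and the 250 bases before each start were searched on both strands. Shown are the 3 genes that rose whose window holds no GENCODE v29 exon, HNRNPH3, PRPF6 and SRSF6, and the HNRNPH3 relatives that were not called, HNRNPH1 and HNRNPH2. The windows lie at chr10:68331443-68331692 (+ strand) for HNRNPH3, chr20:63980882-63981131 (+) for PRPF6, chr20:43457646-43457895 (+) for SRSF6, chr5:179634785-179635034 (- strand) for HNRNPH1 and chrX:101407972-101408221 (+) for HNRNPH2. Each is written 5' to 3' on the strand of its gene, with matches to any motif named below in capitals.
HNRNPH3: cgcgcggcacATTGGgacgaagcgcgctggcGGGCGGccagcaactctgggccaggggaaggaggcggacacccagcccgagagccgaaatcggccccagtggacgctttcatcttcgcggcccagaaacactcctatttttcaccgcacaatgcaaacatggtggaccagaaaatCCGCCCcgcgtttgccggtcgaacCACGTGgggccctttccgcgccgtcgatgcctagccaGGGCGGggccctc
PRPF6: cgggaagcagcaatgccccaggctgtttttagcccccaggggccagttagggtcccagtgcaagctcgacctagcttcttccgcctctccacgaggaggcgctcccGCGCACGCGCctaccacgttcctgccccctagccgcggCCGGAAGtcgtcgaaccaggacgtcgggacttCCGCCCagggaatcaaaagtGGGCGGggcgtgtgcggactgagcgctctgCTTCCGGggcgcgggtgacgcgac
SRSF6: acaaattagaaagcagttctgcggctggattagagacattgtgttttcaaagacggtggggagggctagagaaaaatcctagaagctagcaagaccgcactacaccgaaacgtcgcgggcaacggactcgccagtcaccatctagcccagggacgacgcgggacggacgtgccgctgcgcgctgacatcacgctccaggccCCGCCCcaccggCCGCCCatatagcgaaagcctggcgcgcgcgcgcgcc
HNRNPH1: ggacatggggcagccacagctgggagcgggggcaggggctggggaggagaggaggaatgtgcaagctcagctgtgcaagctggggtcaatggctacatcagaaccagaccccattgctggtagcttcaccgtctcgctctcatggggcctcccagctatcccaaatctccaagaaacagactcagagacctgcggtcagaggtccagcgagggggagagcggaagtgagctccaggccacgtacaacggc
HNRNPH2: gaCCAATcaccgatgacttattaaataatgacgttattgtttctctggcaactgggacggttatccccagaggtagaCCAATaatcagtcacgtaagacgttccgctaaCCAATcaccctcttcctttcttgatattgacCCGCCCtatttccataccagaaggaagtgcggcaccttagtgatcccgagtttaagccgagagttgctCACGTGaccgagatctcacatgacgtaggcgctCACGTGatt

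The GC box (GGGCGG) was in 9 of the 10 matched genes that rose and in 20 of the 33, beside 42.6% of 35114 RefSeq windows. The CCAAT box (CCAAT) was in 16 of the 33 and in 4 of the 10, beside 32.0% of all windows. HNRNPH3 and HNRNPH2 each hold a CCAAT box, a GC box and an E-box (CACGTG, in 6.35% of all windows and 5 of the 33), and the HNRNPH1 window holds none of the motifs. PRPF6 holds the ETS core (CCGGAAG, 5 of the 33, 8.52% of all windows) and the NRF1 motif, GC-rich with 1 free base (5 of the 33, 5.07%). The ZBTB33 motif (TCTCGCGA) was in 2 of the 33, beside 1.03% of all windows, and neither the YY1 motif (AAGATGGC, 1.36%) nor the CRE (TGACGTCA, 1.65%) was found in any of the 33. The median GC content of the 33 windows was 64.8%, beside 58% over all windows. The GC box and NRF1 motifs are themselves rich in G and C. These matches are a description of the letters in 1 window per gene.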

How the data were processed

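The deposited table gives raw read counts per gene symbol for the 6 libraries, with duplicates removed per its title. Per the submitters' processing notes, the build was hg19, and the tools include featureCounts, Subread 1.5.0, TopHat2 2.0.13 and Trim Galore 0.4.0. Not given in the sources used here are the annotation, the strand setting and the handling of duplicates and multi-mapped reads. Duplicate removal lowers the counts of abundant genes more than those of others, and many of the 37 genes are abundant.

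Counts were tested with the edgeR 4.0.16 quasi-likelihood test (R 4.3.3, TMM factors, filterByExpr with a minimum count of 10 and total of 15, robust dispersion, no replicate term), adjusted by Benjamini-Hochberg over 16873 genes and called at 0.05, two-sided. CPM are TMM-normalised. The common biological coefficient of variation was 10.2%. The test was checked on simulated counts. Of the authors' deposited comparison table, the log2 fold changes and the adjusted p-values were used. The authors' batch-corrected log2 values served only to see whether groups separated, and the score columns in the authors' comparison table were not used. The 37 genes and the other lists were chosen with earlier results of these data known. Named in full are all called genes of the 37, the 4 uncalled of highest mean CPM, the 3 genes of smallest p in each other list and tested pseudogenes; SRSF1, SRSF3, SRSF5, SRSF7, SRSF11, PRPF31, HNRNPH1, HNRNPH2, HNRNPM, HNRNPD, CLK1, CLK2, SRPK1, DYRK1A, EFTUD2, SNRNP200 and HNRNPU-AS1 were added after their values were seen.

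Deviations from the group means correlated at 0.102, 0.377 and 0.211 between the libraries of numbers 1, 2 and 3, all above 0.1. The differences within each number and the fit with the replicate block took the numbers as pairs. The main test and the permutation test of the ratios did not. The pairing is clearest for number 2. In number 3 the 2 libraries were also nearest to each other, but 0.211 was only a little above the next values. Number 1 was not paired, since ASO-L1 library 1 was nearer to SO-L1 library 3 (0.162), and SO-L1 library 1 to ASO-L1 library 3 (0.156). Alternatives were other scaling, other filters, DESeq2 1.42.0, limma-voom 3.58.1, the replicate block, each library or number left out, and a test against a 1.2-fold change. No pair of libraries in a group was alike within sampling noise (chi-square per degree of freedom of 2.05 or more).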

Additional observations from a re-analysis of the deposited data

How the results depend on the processing

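Over the 17 alternatives PRPF3, PRPF4 and HNRNPH3 kept their calls, and other scaling, other filters, DESeq2, limma-voom and the replicate block kept all 12. Leaving out libraries gave 3 to 15 called genes of the 37 (3 to 14 higher, 0 to 1 lower), against 12 in all libraries. The lowest counts were 3 without number 1 (6.95% of all tested genes), 4 without number 3 (16.9%) and 8 without SO-L1 library 3 (17.5%). Against a 1.2-fold change 3 of the 37 were called, beside 12.2% of all tested genes (7.47% as higher). HNRNPM was the 1 gene called lower without a filter, with the replicate block, without ASO-L1 library 3 and without number 2. Of the 37 genes the replicate block changed the calls of SRSF5, HNRNPU and HNRNPM and of no other.

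Over all tested genes, 5684 were called (3031 higher, 2653 lower). Leaving out libraries gave 1183 to 7197 (757 to 3726 higher, 426 to 3471 lower), and a 1.2-fold change left 2066 (1261 higher, 805 lower). Of the other splicing genes 66 were called (48.2%, beside 33.7% of all tested genes). Leaving out libraries gave 12 to 87 (9 to 59 higher, 3 to 28 lower). The lowest was without number 1 (6.95% of all tested genes) and the highest without number 2 (41.7%). A 1.2-fold change left 13 (9 higher, 4 lower), beside 12.2% of all tested genes. The replicate block gave 89, beside 45.7%.

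Genes that changed sign were not called in any such setting. Without scaling beyond library totals, the median of all genes was -0.05, and HNRNPK (-0.012) and HNRNPUL2 (-0.018) turned negative. On leaving out libraries the log2 fold change ran from -0.074 to 0.045 for SRSF1, from -0.17 to 0.12 for SRSF8, from -0.076 to 0.025 for SRSF9, from -0.20 to 0.0030 for SRSF12, from -0.068 to 0.045 for HNRNPA2B1, from -0.0028 to 0.087 for HNRNPC and from -0.026 to 0.041 for HNRNPUL2. The cause of these changes was not tested, and fits with fewer libraries have fewer degrees of freedom. With 3 libraries a group and a coefficient of variation of 10.2%, the smallest change called among the 37 genes was 0.22 on the log2 scale. Changes of that size, smaller ones and some larger ones may be missed, so an uncalled gene is not shown to be unchanged.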
